A study of Mus musculus with 8 samples.

Results

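A set of 10 genes of metal and oxidant defence were followed in regulatory T cells (Tregs, CD4 T cells that depend on the factor Foxp3 and hold back immune responses) sorted from muscle and spleen. The set holds Mt1, Mt2, Hmox1, Txnrd1, Srxn1, Gclm, Prdx1, Sqstm1, Nfe2l2 and Txnip, taken by gene symbol from the deposited count table. All 10 were found among its 38406 gene symbols, and all 10 were among the 14772 genes that passed the filter on low counts. The 10 genes were chosen with earlier results of these data known. Their shares beside those of all genes therefore describe the set and do not test it. The libraries form 4 groups of 2: aged muscle, young muscle, aged spleen and young spleen. Aged mice were older than 6 months and young mice 2 months old, and all were males of the C57BL/6 background. In every group, spleen included, cardiotoxin (a venom peptide that kills muscle fibres, after which the muscle regenerates) had been injected at 0.9 µg per muscle into the tibialis anterior, quadriceps and gastrocnemius 4 days before the organs were taken, so no group stands for uninjured animals. Each library came from 1500 Tregs sorted in 2 rounds, with RNA amplification by in vitro transcription and PCR. The sources used here do not give the markers of the sort gate. The libraries of a group are called biological duplicates, with no statement that they came from separate animals. The p-values therefore speak of the spread between libraries, which may be technical.

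Metallothioneins, encoded by Mt1 and Mt2, are small cysteine-rich proteins that bind zinc, copper and cadmium. Their genes are switched on by the zinc sensor Mtf1 at metal response elements, and also by glucocorticoids and oxidants. Most of the other genes belong to the pathway of Nrf2, the transcription factor encoded by Nfe2l2. Keap1 marks Nrf2 for degradation until oxidants or electrophiles release it, and Nrf2 then binds antioxidant response elements together with small Maf proteins. Hmox1 encodes haem oxygenase, which breaks down haem. Txnrd1 encodes the cytosolic thioredoxin reductase, Prdx1 a peroxiredoxin that removes hydrogen peroxide, and Srxn1 the sulfiredoxin that repairs over-oxidised peroxiredoxins. Gclm encodes the modifier subunit of the enzyme that limits glutathione synthesis, and Sqstm1 the autophagy receptor p62, which also binds Keap1. Txnip encodes a protein that binds and inhibits thioredoxin and lowers glucose uptake.

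The promoters are shown because metal response elements and antioxidant response elements are the sites through which Mtf1 and Nrf2 act. Within the windows described next, Mt2, Srxn1 and Gclm held both cores and Sqstm1 held neither. Bases outside the windows were not searched, so a core missing from a window may lie beyond it. RefSeq windows on GRCm38.p6, running from 250 bases before to 50 after the start site, were given for 9 of the genes in 11 windows. Hmox1 had no window, so its promoter was not searched. Both strands were searched for the metal response element core, spelt TGCACNC or TGCGCNC, and for the antioxidant response element core, spelt TGACNNNGC. In the first pair, from chromosome 8 on the plus strand, capitals mark the metal response element core on either strand. The Mt1 window is chr8:94178839-94179138 and the Mt2 window is chr8:94172368-94172667.
Mt1: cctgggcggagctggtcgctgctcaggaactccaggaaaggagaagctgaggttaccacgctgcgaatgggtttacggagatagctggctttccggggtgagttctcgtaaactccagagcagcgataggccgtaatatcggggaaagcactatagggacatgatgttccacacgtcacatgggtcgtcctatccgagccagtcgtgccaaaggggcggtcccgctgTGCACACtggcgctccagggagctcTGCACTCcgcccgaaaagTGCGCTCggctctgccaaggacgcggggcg
Mt2: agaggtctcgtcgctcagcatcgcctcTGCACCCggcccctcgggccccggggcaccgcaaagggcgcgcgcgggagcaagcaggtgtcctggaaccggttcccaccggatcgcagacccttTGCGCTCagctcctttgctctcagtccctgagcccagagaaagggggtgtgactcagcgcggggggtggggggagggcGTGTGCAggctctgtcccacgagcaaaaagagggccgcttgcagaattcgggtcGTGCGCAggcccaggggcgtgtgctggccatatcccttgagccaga
Mt1 had 3 such cores and Mt2 had 4, while 1.97% of the 32851 promoter windows searched had 3 or more and 25.7% had at least 1. Mt2 also held 1 antioxidant response element core, which did not overlap these. In the next group capitals mark the antioxidant response element core. The windows, all on the plus strand, are chr10:82858956-82859255 for the Txnrd1 start that holds the core, chr2:152105274-152105573 for Srxn1 and chr4:116685349-116685648 for Prdx1.
Txnrd1: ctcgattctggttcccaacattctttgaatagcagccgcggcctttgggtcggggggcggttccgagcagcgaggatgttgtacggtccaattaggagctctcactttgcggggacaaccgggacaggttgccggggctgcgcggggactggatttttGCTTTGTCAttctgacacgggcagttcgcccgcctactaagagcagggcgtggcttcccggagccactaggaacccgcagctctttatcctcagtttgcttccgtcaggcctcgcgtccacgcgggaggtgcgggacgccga
Srxn1: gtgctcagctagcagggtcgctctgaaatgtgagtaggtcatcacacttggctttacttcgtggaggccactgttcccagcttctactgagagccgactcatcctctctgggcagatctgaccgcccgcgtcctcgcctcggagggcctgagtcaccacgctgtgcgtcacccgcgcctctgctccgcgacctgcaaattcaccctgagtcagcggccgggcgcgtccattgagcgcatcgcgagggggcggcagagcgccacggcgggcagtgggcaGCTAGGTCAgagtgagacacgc
Prdx1: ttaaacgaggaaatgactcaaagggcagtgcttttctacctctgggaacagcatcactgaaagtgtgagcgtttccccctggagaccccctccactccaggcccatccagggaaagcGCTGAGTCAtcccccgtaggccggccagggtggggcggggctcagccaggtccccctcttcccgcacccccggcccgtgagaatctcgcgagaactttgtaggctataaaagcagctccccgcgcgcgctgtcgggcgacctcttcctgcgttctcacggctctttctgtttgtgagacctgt
At least 1 antioxidant response element core stood in 6 of the 11 windows, those of Mt2, Txnrd1, Srxn1, Gclm, Prdx1 and Nfe2l2, against 12.4% of all windows. Gclm had 3 metal response element cores, 1 of them overlapping its antioxidant response element core, and Srxn1 and Txnip had 1 each. The E-box CACGTG was in 0 of the 11 windows and in 7.15% of all windows. A match describes the letters of a window and not binding.

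Library totals ranged from 1969982 to 4008622 counts, and levels are given as CPM, the read count relative to the TMM-scaled library size. A count of 0 allows up to 3 counts in a library, which correspond to 0.736 to 1.5 CPM. Such limits cover counting error only. The T cell and Treg marker list was read in full in every library, 11 of 11 genes, with summed levels of 5183 to 6414 CPM. One library stood apart. In young muscle replicate 1 the 24 myeloid markers, 20 of which were tested, summed to 1363 CPM, against 471 CPM in replicate 2. The sums were 479 and 481 CPM in aged muscle, 522 and 543 CPM in aged spleen and 438 and 333 CPM in young spleen. All 24 had counts in young muscle replicate 1, and 7 were at 0 in aged muscle replicate 1, among them Fcer1g, C1qa and Fcgr3. The macrophage complement gene C1qa had 275 counts in young muscle replicate 1 and 0 in replicate 2, and the lysozyme gene Lyz2 had 288 and 24. Fibroblast and endothelial markers summed to 778 CPM in young muscle replicate 1 and to 163 to 420 CPM in the other 7 libraries. Single genes made up much of some sums. Pecam1 alone was read at 316 and 344 CPM in young spleen, and at 157 CPM in young muscle replicate 1. Of the myeloid markers, Ctss was read at 139 to 270 CPM over the 8 libraries. Of the 10 genes studied, 8 had their highest value of all libraries in young muscle replicate 1, against 14.4% of all genes tested, and 4 (Mt1, Mt2, Hmox1 and Gclm) were over 2 times as high there as in replicate 2, against 10.2%. The main results are therefore given with and without it.

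**Figure D1:**
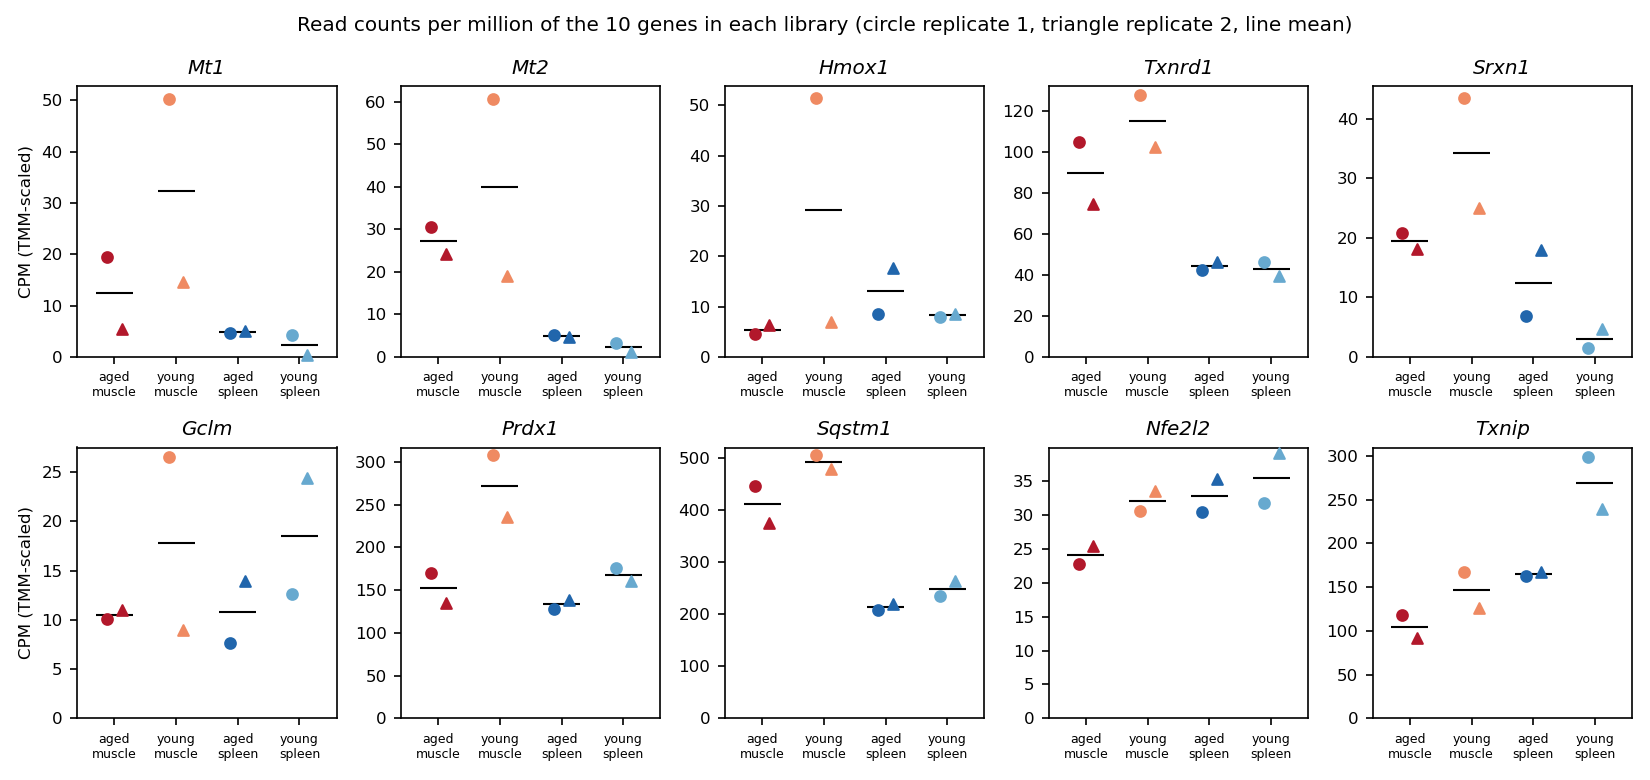
CPM (TMM-scaled, vertical axis from 0) of each of the 10 genes in the 8 libraries, by group; circles are replicate 1, triangles replicate 2 and lines the mean of 2. Txnrd1 and Sqstm1 are high in all 4 muscle libraries, Txnip is highest in young spleen, and the young muscle libraries of Mt1, Mt2, Hmox1 and Gclm differ by over 2 times.

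The comparison of muscle with spleen asks how Tregs that entered injured muscle differ from those in a lymphoid organ. In young mice 6 of the 10 genes were higher in muscle and 1 was lower, against 11.4% and 10.9% of all genes tested, 22.3% together (edgeR quasi-likelihood test, Benjamini-Hochberg adjusted p under 0.05). The genes higher in muscle were Mt1, Mt2, Txnrd1, Srxn1, Prdx1 and Sqstm1, and the lower one was Txnip. In aged mice 3 were higher, Mt2, Txnrd1 and Sqstm1, and Txnip was again lower, against 9.57% and 9.27% of all genes, 18.8% together. The median log2 fold change of the 10 was 1.20 in young and 0.44 in aged mice, and that of all genes was 0.07 and 0.03. Without young muscle replicate 1 the count in young mice was 4 higher and 1 lower, against 12.8% of all genes higher and 23.8% called, and the median was 0.71. For 5 genes (Mt1, Mt2, Txnrd1, Srxn1 and Sqstm1) all 4 muscle libraries lay above all 4 spleen libraries, which held for 12.3% of all genes, and for 0 genes did they all lie below, against 14.6%. The comparisons share groups: each muscle group and each spleen group enters the tissue comparison of its age and the age comparison of its tissue.

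Both metallothionein genes were higher in muscle in young mice. Mt2 (chromosome 8, 94172664 to 94173568, plus strand) was read at 30.5 and 24.1 CPM in aged muscle and 60.7 and 19 CPM in young muscle, against 5.15 and 4.75 CPM in aged spleen and 3.27 and 1.16 CPM in young spleen. The muscle libraries did not overlap the spleen libraries at either age. In young mice the log2 fold change was 4.19 ± 0.64 (SE; edgeR adjusted p = 0.00034), which is 18.3-fold, and without young muscle replicate 1 it was 3.11 and still called. In aged mice it was 2.45 ± 0.56 (edgeR adjusted p = 0.0077), a call that ended without aged spleen replicate 1 (2.51) or replicate 2 (2.40). Mt1 (chromosome 8, 94179082 to 94180327, plus strand) lies 5513 bases beyond the end of Mt2. It was read at 19.4 and 5.50 CPM in aged muscle and 50.3 and 14.5 CPM in young muscle, against 4.66 and 5.09 CPM in aged spleen and 4.21 and 0.387 CPM in young spleen. The last of these values is a single read. The lowest muscle library, aged muscle replicate 2, was only just above the highest spleen library. In young mice Mt1 differed by 3.86 ± 0.94 (edgeR adjusted p = 0.013), and the call ended without young muscle replicate 1 (2.69) or young spleen replicate 2 (2.94). In aged mice the difference was 1.35 ± 0.83 (edgeR adjusted p = 0.27). Transcripts of Mt1 shared 0 of their 1061 stretches of 25 bases with any other annotated gene, and those of Mt2 shared 13 of 487, so reads of that length can tell the pair apart.

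Thioredoxin reductase and p62 were higher in muscle at both ages. Txnrd1 (chromosome 10, 82833951 to 82897712, plus strand) was read at 105 and 74.8 CPM in aged muscle and 128 and 102 CPM in young muscle, against 42.4 and 46.1 CPM in aged spleen and 46.3 and 39.5 CPM in young spleen. It was 1.43 ± 0.23 higher on the log2 scale in young muscle than in young spleen and 1.03 ± 0.23 higher in aged muscle than in aged spleen (edgeR adjusted p = 0.0005 and 0.0064). The call in young mice held in each of the 15 fits run, and that in aged mice ended without aged spleen replicate 1 (0.96) or replicate 2 (1.09). Sqstm1 (chromosome 11, 50199366 to 50210827, minus strand) was read at 447 and 376 CPM in aged muscle and 506 and 479 CPM in young muscle, against 208 and 220 CPM in aged spleen and 235 and 264 CPM in young spleen. Its replicates lay close together and no muscle library came near a spleen library. The log2 fold changes were 0.98 ± 0.15 in young and 0.95 ± 0.15 in aged mice (edgeR adjusted p = 0.00035 and 0.00068), and both calls held in each of the 15 fits. Mrnip is annotated on the opposite strand across the end of Sqstm1, and without a stated strand setting its reads cannot be told from those of Sqstm1. The same holds for genes on the opposite strand that overlap Mt2 (Gm45774), Txnrd1 (Gm38560 and Gm47073) and Gclm (Gm17494). Eid3 lies within Txnrd1 on the same strand.

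Sulfiredoxin and peroxiredoxin, which act in one repair cycle, were higher in muscle in young mice. Srxn1 (chromosome 2, 152105516 to 152111376, plus strand) was read at 20.9 and 18.2 CPM in aged muscle and 43.5 and 25 CPM in young muscle, against 6.86 and 18.0 CPM in aged spleen and 1.40 and 4.65 CPM in young spleen. The gap was wide in young mice, while aged spleen replicate 2 reached nearly the level of aged muscle. In young mice the log2 fold change was 3.44 ± 0.62 (edgeR adjusted p = 0.0012), or 10.9-fold, called in each of the 15 fits and 2.99 without young muscle replicate 1. In aged mice it was 0.67 ± 0.53 (edgeR adjusted p = 0.39). Prdx1 (chromosome 4, 116685544 to 116700822, plus strand) was read at 170 and 135 CPM in aged muscle and 308 and 235 CPM in young muscle, against 128 and 138 CPM in aged spleen and 175 and 160 CPM in young spleen. Only the young muscle libraries stood above the rest. In young mice muscle was higher by 0.70 ± 0.18 (edgeR adjusted p = 0.013), and the call ended without young muscle replicate 1 (0.49) or young spleen replicate 1 (0.76) or replicate 2 (0.63). In aged mice the difference was 0.20 ± 0.18 (edgeR adjusted p = 0.45). Of the stretches of 25 bases in the longest Prdx1 transcript, 21.6% also occur in other annotated genes, led by Gm21399 and Gm7204, so its count may be split or reduced.

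Txnip ran the other way. Txnip (chromosome 3, 96557957 to 96561883, plus strand) was read at 118 and 91.3 CPM in aged muscle and 167 and 126 CPM in young muscle, against 163 and 167 CPM in aged spleen and 299 and 239 CPM in young spleen. Young spleen was highest and aged muscle lowest, with young muscle and aged spleen overlapping between them. Muscle was lower by 0.87 ± 0.19 in young and by 0.65 ± 0.19 in aged mice on the log2 scale (log2 fold changes -0.87 and -0.65; edgeR adjusted p = 0.0049 and 0.030). The call in young mice ended without young spleen replicate 1 (-0.70), and that in aged mice without aged muscle replicate 2 (-0.48), aged spleen replicate 1 (-0.67) or aged spleen replicate 2 (-0.63). The antisense gene Gm15441 overlaps Txnip, and without a stated strand setting its reads cannot be told from those of Txnip. It was read at 38.0 to 53.5 CPM over the 8 libraries, and its part in the Txnip values was not tested.

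In the edgeR fit of all 8 libraries after the filter on low counts, Hmox1, Gclm and Nfe2l2 passed no test between the tissues. Hmox1 (chromosome 8, 75093621 to 75100589, plus strand) was read at 4.47 and 6.34 CPM in aged muscle and 51.5 and 6.99 CPM in young muscle, against 8.58 and 17.6 CPM in aged spleen and 7.94 and 8.52 CPM in young spleen. Young muscle replicate 1 alone was high, 7.36 times replicate 2, and the other 3 muscle libraries lay below every spleen library. The log2 fold change in young mice was 1.83 ± 0.75 (edgeR adjusted p = 0.097), and -0.24 without young muscle replicate 1. It was called with no filter on low counts (1.82) and without young muscle replicate 2 (2.64). In aged mice the log2 fold change was -1.26 ± 0.77 (edgeR adjusted p = 0.26). Gclm (chromosome 3, 122245557 to 122270732, plus strand) was read at 10.1 and 11 CPM in aged muscle and 26.6 and 8.99 CPM in young muscle, against 7.60 and 13.9 CPM in aged spleen and 12.6 and 24.4 CPM in young spleen, with all groups overlapping another. Nfe2l2 (chromosome 2, 75675513 to 75704641, minus strand) was read at 22.7 and 25.4 CPM in aged muscle and 30.6 and 33.5 CPM in young muscle, against 30.4 and 35.3 CPM in aged spleen and 31.8 and 39.1 CPM in young spleen. The mRNA of Nrf2 itself did not pass the test: the log2 fold changes between the tissues were -0.15 ± 0.29 in young and -0.45 ± 0.29 in aged mice (edgeR adjusted p = 0.75 and 0.29).

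**Figure D2:**
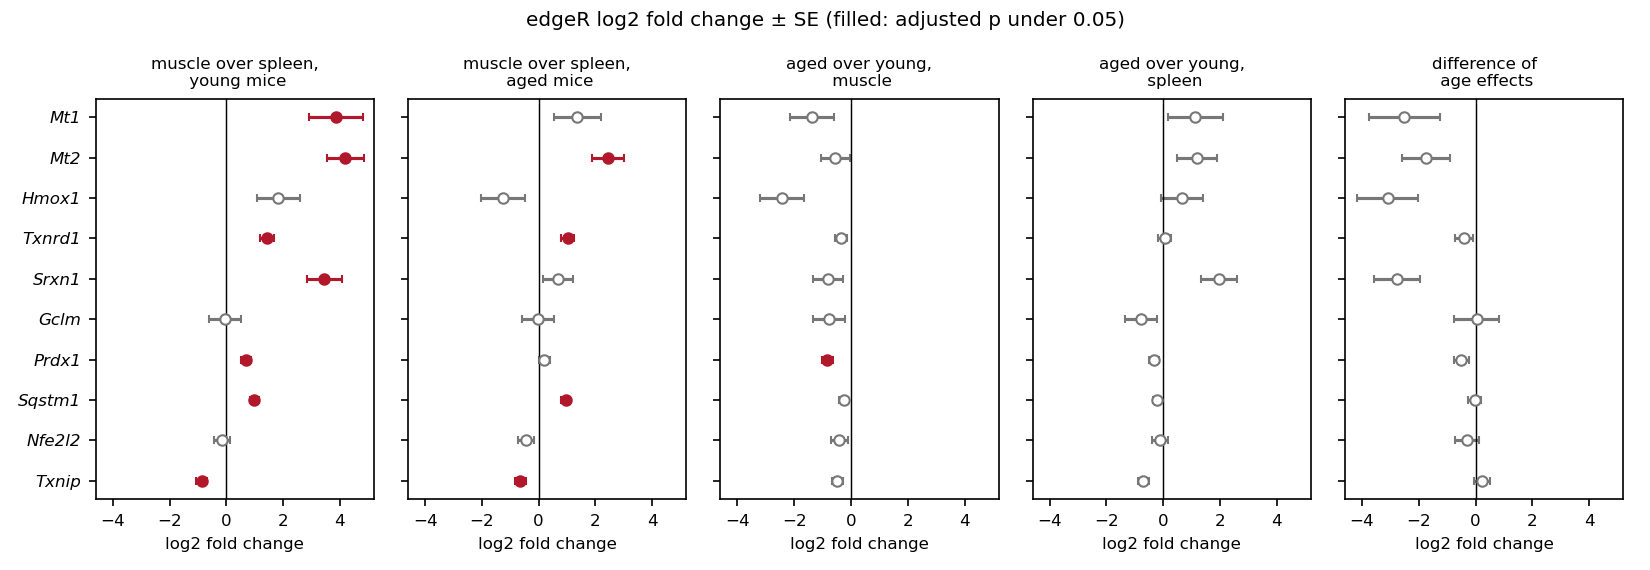
edgeR log2 fold change of each gene (horizontal axis, bars are 1 SE) in the 5 comparisons; filled red points have an adjusted p under 0.05. The filled points stand mainly in the panels of muscle over spleen, 7 in young and 4 in aged mice, with 1 in the panel of age in muscle and 0 in those of age in spleen and of the difference of age effects.

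Age in muscle was compared to ask how the Tregs of injured muscle change in older mice. Of the 10 genes 0 rose and 1 fell, against 1.14% and 0.88% of all genes tested, 2.02% together. Prdx1 averaged 153 ± 25 CPM in aged muscle and 272 ± 51 CPM in young muscle (SD, n = 2 each), a log2 fold change of -0.83 ± 0.18 (edgeR adjusted p = 0.028). The call held in 8 of 15 fits. It ended without young muscle replicate 1 (-0.62), without aged muscle replicate 2 (-0.68), without any 1 of the 4 spleen libraries (-0.83 in each) and when the 2 muscle groups were fitted alone (-0.83). All 10 log2 fold changes were below 0, with a median of -0.66, while 47.9% of all genes were below 0 and their median was 0.03. For 6 of the genes both aged muscle libraries lay below both young muscle libraries, which held for 20.3% of all genes. Without young muscle replicate 1 the median was -0.24, 0 of the 10 were called by edgeR against 0.995% of all genes, and Mt2 and Gclm were above 0, at 0.53 and 0.23. The myeloid markers moved with age in muscle as well: of 20 tested, 2 fell and 0 rose, with a median of -0.77, and the receptor subunit genes Fcer1g and Tyrobp had log2 fold changes of -5.75 ± 1.14 and -4.86 ± 0.96 (edgeR adjusted p = 0.016 and 0.021). With that library left out, edgeR called none of the 20 and their median was 0.20. Their part in the values of the 10 genes was not tested beyond that. Hmox1 gave the lowest log2 fold change of the set, -2.44 ± 0.77 (edgeR adjusted p = 0.15), which was -0.37 without young muscle replicate 1. It was called without young muscle replicate 2 (-3.25) and with no filter on low counts (-2.48). Mt1 differed by -1.38 ± 0.78, Mt2 by -0.55 ± 0.50 and Srxn1 by -0.81 ± 0.52, and none of these passed the test (edgeR adjusted p = 0.43, 0.64 and 0.48). The libraries of Mt1 and Mt2 overlapped between the ages and those of Srxn1 did not. Txnip differed by -0.48 ± 0.20 (edgeR adjusted p = 0.25).

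**Figure D3:**
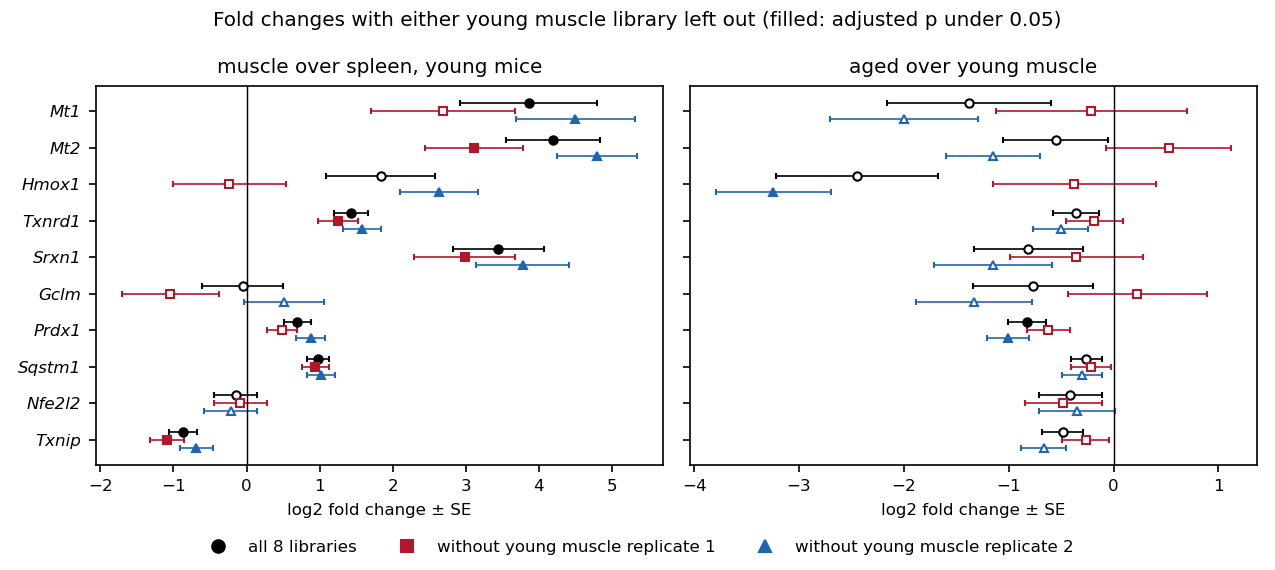
log2 fold changes (horizontal axis, bars are 1 SE) of the 10 genes with all 8 libraries (black circles), without young muscle replicate 1 (red squares) and without replicate 2 (blue triangles); filled symbols have an adjusted p under 0.05. Mt2, Txnrd1, Srxn1, Sqstm1 and Txnip stay filled in the left panel, while Hmox1 stands at -0.24 without replicate 1 and at 1.83 with all 8 libraries.

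In spleen, where the same age contrast asks whether Tregs outside muscle change, 0 of the 10 genes passed the edgeR test, against 4.24% of all genes (2.08% higher and 2.17% lower). At an unadjusted p under 0.05 there were 2, Txnip and Srxn1, against 16.7% of all genes. By DESeq2 there was 1, Txnip, against 6.4% of the 13053 genes that DESeq2 gave an adjusted p. When the 2 spleen groups were fitted alone by edgeR, Srxn1 and Txnip were called, against 1930 of the 14772 genes tested. Txnip averaged 165 ± 3.0 CPM in aged spleen and 269 ± 42 CPM in young spleen (SD, n = 2 each), a log2 fold change of -0.70 ± 0.19 (edgeR adjusted p = 0.05041). Its value lay just outside the threshold and was called in 9 of 15 fits, among them those without any 1 of the 4 muscle libraries, with the DESeq2 adjusted p at 0.016. Both aged spleen libraries lay below both young ones. Srxn1 averaged 12.4 ± 7.9 CPM in aged spleen and 3.03 ± 2.3 CPM in young spleen, a log2 fold change of 1.96 ± 0.63 (edgeR adjusted p = 0.10). The aged spleen libraries of Srxn1 lay above the young ones, at 28 and 53 counts against 3 and 12. Srxn1 was called with no filter on low counts (1.97) and in the fit of the 2 spleen groups (1.95), and its value was 1.13 without aged spleen replicate 2 and 3.09 without young spleen replicate 2. The metallothionein genes had 19 and 15 counts (Mt1) and 21 and 14 counts (Mt2) in aged spleen, against 9 and 1 (Mt1) and 7 and 3 (Mt2) in young spleen. Their differences of 1.13 ± 0.97 and 1.19 ± 0.69 did not pass the test (edgeR adjusted p = 0.63 and 0.42). Without young spleen replicate 1 they were 3.50 and 2.05, and without replicate 2 they were 0.21 and 0.59, with neither called. Txnrd1 differed by 0.05 ± 0.24 (edgeR adjusted p = 0.95) with nearly equal levels in all 4 spleen libraries.

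The difference of the age effects, muscle minus spleen, passed for 0 of the 10 genes by edgeR and by DESeq2. Of all genes, edgeR called 2.52% (1.35% higher and 1.17% lower). DESeq2 called 3.6% of the 13626 genes it gave an adjusted p. At an unadjusted p under 0.05 there were 2 of the 10, against 13.0% of all genes by edgeR. These were Srxn1, at -2.77 ± 0.81 (edgeR adjusted p = 0.10), and Hmox1, at -3.10 ± 1.07 (edgeR adjusted p = 0.20). Both were called without young muscle replicate 2 (-3.11 and -3.90) and with no filter on low counts (-2.80 and -3.14), and without young muscle replicate 1 Hmox1 stood at -1.03. Mt1 had a difference of -2.51 ± 1.25 and Mt2 of -1.74 ± 0.85 (edgeR adjusted p = 0.44 and 0.41). Whether the contrast of muscle with spleen differs between ages is the same test, so the calls of Mt1, Srxn1 and Prdx1 in young and not in aged mice do not show that the ages differ.

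The wider pathway was read from 9 lists of 117 genes in the table, 108 of them tested. Between the tissues in young mice 14 were higher and 10 lower in muscle, 13.0% and 9.26%, close to the 11.4% and 10.9% of all genes. Without young muscle replicate 1 the counts in young mice were 6 higher and 16 lower. In aged mice 8 were higher and 8 lower, 7.41% each, against 9.57% and 9.27% of all genes. With age 1 rose in muscle, Maff, and 0 fell, against 1.14% and 0.88% of all genes. In spleen 0 rose and 6 fell, 5.56% of those tested, against 2.08% and 2.17% of all genes. The 6 were Gsto1, Sesn1, Cat, Maff, Bach2 and Klf2.

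Within those lists, glutathione genes gave 4 higher and 1 lower of 13 tested in young muscle over young spleen, with a median of 0.28, and 2 and 0 in aged mice. They gave 1 higher and 2 lower in young mice without young muscle replicate 1. Glrx, the glutaredoxin that reduces protein-glutathione bonds, was read at 1097 and 917 CPM in aged muscle and 1339 and 1219 CPM in young muscle, against 287 and 259 CPM in aged spleen and 195 and 181 CPM in young spleen. It was higher in muscle by 2.77 ± 0.16 in young and by 1.88 ± 0.15 in aged mice (edgeR adjusted p = 2.4e-08 and 1.4e-06). The phospholipid peroxidase gene Gpx4 was higher in young muscle by 0.63 ± 0.16 and Ggct, which degrades gamma-glutamyl peptides, lower (log2 fold change -3.87 ± 0.63). Of 14 thioredoxin and peroxiredoxin genes 3 were higher and 2 lower in young and 1 and 1 in aged mice, and without young muscle replicate 1 the counts in young mice were 2 and 3. The stress-induced sestrin gene Sesn2 was higher in muscle by 2.02 ± 0.27 in young and 1.5 ± 0.27 in aged mice, while Sesn3 had log2 fold changes of -1.82 ± 0.22 and -1.61 ± 0.22. Of 7 superoxide and peroxide genes 1 was higher in young mice (1 higher and 2 lower without young muscle replicate 1), and 1 higher and 1 lower in aged mice. Sod2, the mitochondrial superoxide dismutase gene, was higher in muscle by 0.77 ± 0.17 in young and 0.60 ± 0.17 in aged mice.

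The 13 genes of NADPH supply gave 1 higher and 1 lower in young mice and 1 higher and 2 lower in aged mice. The epoxide hydrolase gene Ephx1 was lower in muscle (log2 fold changes -2.87 ± 0.22 in young and -2.97 ± 0.21 in aged mice), and the transketolase gene Tkt was higher by 0.54 ± 0.16 and 0.52 ± 0.16. Of 11 haem and iron genes 2 were higher in young mice, the haem transporter gene Slc48a1 by 1.02 ± 0.24 and the ferritin heavy chain gene Fth1 by 0.65 ± 0.17, and 0 passed in aged mice by edgeR, with 1 at an unadjusted p under 0.05. Of 14 zinc and metal genes 1 was lower in young mice, the zinc importer gene Slc39a10 (-2.03 ± 0.55), and 1 was higher in aged mice, the zinc transporter gene Slc30a4 (3.70 ± 1.00). Over all genes 11.4% were higher and 10.9% lower in young mice, and 9.57% and 9.27% in aged mice. Of 13 autophagy genes 2 were higher in young mice, Map1lc3b by 0.65 ± 0.19 and Map1lc3a by 1.66 ± 0.52, and 1 higher and 1 lower in aged mice. Without young muscle replicate 1 the haem and iron list gave 1 higher in young mice, and the calls of Tkt, Map1lc3b and Map1lc3a there ended. Of the 10 Txnip regulators and alpha-arrestins, 0 were higher at either age and 2 were lower at each age. The lower genes were Klf2 and Foxo3 in young mice, and the Txnip paralogue Arrdc4 and Foxo1 in aged mice.

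Regulators of Nrf2 gave 1 higher and 3 lower of 13 in young mice and 1 higher and 1 lower in aged mice. Maff, a small Maf protein that partners Nrf2, was read at 131 and 146 CPM in aged muscle and 31.8 and 28.5 CPM in young muscle, against 23.5 and 28.5 CPM in aged spleen and 87.9 and 101 CPM in young spleen. It rose with age in muscle by 2.20 ± 0.22 (edgeR adjusted p = 8.5e-05) and fell with age in spleen by 1.86 ± 0.22 on the log2 scale (edgeR adjusted p = 0.00015). Bach2, a repressor of T cell effector genes that binds the same kind of site, was read at 61.1 and 78.7 CPM in aged muscle and 46.7 and 85.9 CPM in young muscle, against 198 and 200 CPM in aged spleen and 622 and 586 CPM in young spleen. Its level was lower in muscle at both ages (log2 fold changes -3.20 ± 0.24 in young and -1.51 ± 0.23 in aged mice). The glucocorticoid response list was set beside these because glucocorticoids induce metallothioneins. It gave 7 higher and 1 lower of 12 at both ages, with medians of 0.72 in young and 0.76 in aged mice. The shares over all genes were 11.4% higher and 10.9% lower in young mice, and 9.57% and 9.27% in aged mice. Whether glucocorticoids acted on the 10 genes was not tested. The clock gene Per1 was higher in muscle by 1.96 ± 0.17 in young and 0.97 ± 0.16 in aged mice, and Fkbp5, a standard glucocorticoid target, was the lower one (-1.86 ± 0.19 in aged mice). Without young muscle replicate 1 the counts of this list were 7 and 1 in young and 8 and 1 in aged mice.

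**Figure D4:**
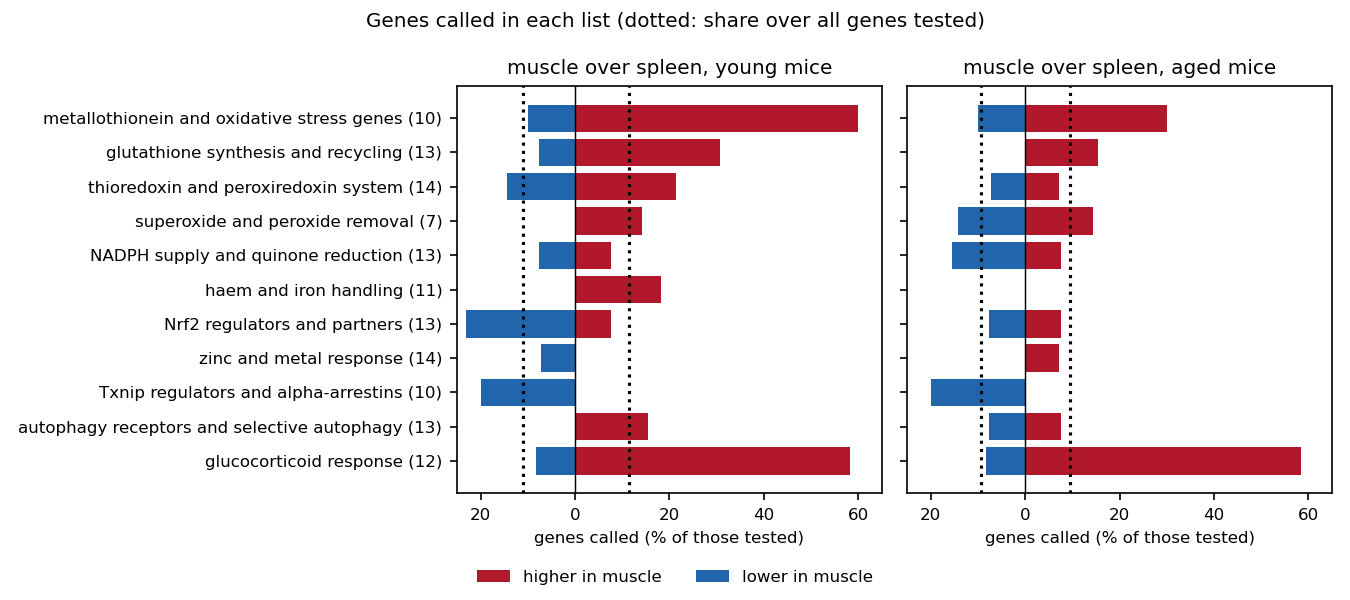
Share of the tested genes of each list (number tested in brackets) that were higher (red, right) or lower (blue, left) in muscle than in spleen, in young and aged mice; dotted lines are the shares over all 14772 genes. The bars of the 10 genes and of the glucocorticoid list reach furthest past the dotted line on the higher side in young mice. All 8 libraries were used, and the 10 genes and all lists were chosen with earlier results of these data known.

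Myeloid markers also differed between the tissues in young mice, with 8 of 20 tested genes higher in muscle and 0 lower (median 2.16). In aged mice 2 of the 20 were higher and 2 lower (median 0.45). Over all genes 11.4% were higher and 10.9% lower in young mice, and 9.57% and 9.27% in aged mice. Without young muscle replicate 1 the myeloid median in young mice was 0.48. In bulk libraries fewer cells of a type and less RNA per cell cannot be told apart, and the part of these markers in the results for Mt1 and Prdx1 was not tested beyond leaving out that library. Of the other lists in young mice, B cell markers gave 1 higher and 1 lower of 10, erythroid markers 0 and 1 of 6, muscle and satellite cell markers 0 and 0 of 7, fibroblast and endothelial markers 2 and 1 of 8, and CD8 T and NK cell markers 1 and 0 of 5. Without young muscle replicate 1 the fibroblast and endothelial list had a median of -0.59, against 2.86 with all libraries. The erythroid list had a median of -3.78 without it, against -0.76 with all libraries. Muscle and satellite cell markers had 3 genes at an unadjusted p under 0.05 in young mice with all libraries. Their sums were 13.6 to 44.0 CPM over all libraries, and Myog was at 0 in each. In aged mice B cell markers gave 0 higher and 2 lower of 10 and erythroid markers 0 and 3 of 6. Muscle and satellite cell markers gave 0 and 0 of 7, fibroblast and endothelial markers 0 and 0 of 8, and CD8 T and NK cell markers 1 and 0 of 5. Erythroid markers summed to 150 and 170 CPM in aged spleen and to 17.5 and 24.9 CPM in aged muscle. Their part in the values of the 10 genes was not tested.

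The genes most like each called gene over the 8 libraries were found by Pearson's r of log2 CPM among 7785 genes with a mean of at least 4. Mt1 was nearest to Lamp2 (0.972), Prkcd (0.953) and Sytl1 (0.950), and Mt2 to Ube2a (0.99), Egr1 (0.98) and Cited2 (0.97). Txnrd1 was nearest to Mfge8, Wnk1 and Lgals1 (each 0.99), Srxn1 to Osbpl5 (0.97), Dqx1 (0.97) and Top2a (0.96), and Prdx1 to Dda1 (0.99), Gpx1 (0.98) and Slc2a3 (0.97). Sqstm1 was nearest to Mxd1 (0.996), Ulk1 (0.99) and Cpm (0.99), and Txnip to Ubqln1, Rpl11 and Eef1a1 (each 0.99). With 8 libraries that share 4 groups, such values describe the pattern only. Over the same libraries the log2 CPM of Mt1 and Mt2 had r = 0.91 with each other, and Mt2 had r = 0.95 with Txnrd1 and -0.69 with Txnip.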

How the data were processed

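What the authors deposited for the 8 libraries is a table of unnormalized gene counts in whole reads. Tools in the submitters' processing notes are HTSeq, Picard, TopHat, TopHat2 and SAMtools 0.1.19, on mm10. Annotation and strand setting: not given in the sources used here. Without molecular identifiers, PCR copies count as reads.

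Low genes were removed with filterByExpr and libraries scaled by TMM. In R 4.3.3, edgeR 4.0.16 fitted a robust quasi-likelihood model of the 4 groups to all 8 libraries. It left 4 residual degrees of freedom, at a biological coefficient of variation of 0.288. The groups shared this estimate of the spread, although replicate pairs differed more in muscle than in spleen. Their mean chi-square per gene against sampling noise was 8.65 in young and 8.49 in aged muscle. It was 3.84 in young and 4.34 in aged spleen. The part of this imbalance in the calls was not tested. Contrasts were two-sided, with Benjamini-Hochberg adjustment over the 14772 genes at 0.05. Standard errors were taken as the size of the log2 fold change over the root of F. CPM is relative to the TMM-scaled library size, and log2 CPM used a prior count of 2. The pipeline was tested on simulated data. Alternatives were DESeq2 1.42.0, other scalings, no filter, fits of 2 groups, a replicate block and each library left out with the genes tested held. When a library is left out, its group's other library is assumed to vary like the other groups.

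The 10 genes and all lists were chosen with earlier results of these data known. All 10 are described, and in each further list at most the 3 genes of smallest p per comparison are named. Positions are from GENCODE M21 on GRCm38, which mm10 names.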

Additional observations from a re-analysis of the deposited data

Results flagged for a closer look

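By the edgeR test the effect of age differed between muscle and spleen for 0 of the 10 genes and for 2.52% of all genes tested. At such a share, 0 of 10 does not set the 10 genes apart. Of 108 pathway genes tested 3 were higher and 1 lower in this difference, 2.78% and 0.926%, against 1.35% and 1.17% of all genes. The glucocorticoid list gave 0 and 2 of 12, the Treg list 1 and 1 of 11 and the myeloid list 0 and 3 of 20. The B cell, erythroid, muscle, fibroblast and CD8 T cell lists gave 0. Values here are the log2 fold change with age in muscle minus that in spleen. The effect of age differed for 11 genes of the accompanying lists in all. From the pathway lists and the glucocorticoid list they were Maff at 4.06 ± 0.31, Bach2 at 1.69 ± 0.32, Klf2 at 1.27 ± 0.22, Glrx at -0.88 ± 0.21, Cebpb at -1.38 ± 0.28 and Per1 at -0.99 ± 0.23 (SE; edgeR adjusted p = 3.1e-06, 0.012, 0.0056, 0.038, 0.013 and 0.034). From the Treg list they were Il2ra, the high-affinity IL-2 receptor chain, at 0.87 ± 0.21 and the inhibitory receptor gene Ctla4 at -1.01 ± 0.19 (edgeR adjusted p = 0.040 and 0.0096). From the myeloid list they were Fcer1g at -6.53 ± 1.49, Tyrobp at -5.93 ± 1.34 and Cybb at -1.77 ± 0.42 (edgeR adjusted p = 0.030, 0.036 and 0.036). Leaving out young muscle replicate 1, the calls of Glrx (-0.81), Per1 (-0.92), Il2ra (0.86), Fcer1g (-4.95), Tyrobp (-3.57) and Cybb (-1.41) ended, and those of Maff, Bach2, Klf2, Cebpb and Ctla4 held. Of the 11 calls, 8 held without aged muscle replicate 1, 7 without aged muscle replicate 2 and 11 without young muscle replicate 2. Leaving out any 1 spleen library ended most of these calls, and fewer of all genes were called as well. The call of Maff held in each case, at 3.92 to 4.20. Maff moved in opposite directions in the 2 tissues. Klf2, a factor of lymphoid homing, was read at 260 and 256 CPM in aged muscle and 292 and 238 CPM in young muscle, against 281 and 232 CPM in aged spleen and 647 and 628 CPM in young spleen, so its levels stood apart in young spleen alone. Cebpb, which encodes a stress-responsive transcription factor, was read at 182 and 157 CPM in aged muscle and 378 and 257 CPM in young muscle, against 88.0 and 91.6 CPM in aged spleen and 65.4 and 63.5 CPM in young spleen.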

How the results depend on the processing

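Numbers of the 10 genes called were 7 between the tissues in young mice and 4 in aged mice, and stayed within 1.5 times of these under DESeq2, other scalings, no filter, fits of 2 groups and the replicate block. Without 1 library the median log2 fold change of the 10 was 0.71 to 1.30 in young and 0.13 to 0.73 in aged mice. Without either aged spleen library, fewer of the 10 and fewer of all genes were called between the tissues in aged mice. For age in muscle the count was 1, with 2 without a filter, 0 in the fit of 2 groups and 0 to 2 without 1 library. For age in spleen it was 0, with 1 under DESeq2, 1 with its size factors in edgeR, 2 without a filter, 2 in the fit of 2 groups and 0 to 1 without 1 library. For the difference of age effects it was 0, with 2 without a filter and 0 to 2 without 1 library. With the replicate block age in spleen gave 1 call, Txnip at -0.69, and the block changed no other call of the 10 genes. The replicate numbers pair nothing in the labels, and same-numbered libraries of 2 groups deviated together with r of -0.07 to 0.26.

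Every value whose sign turned lay within 1 of its own SE of 0. Without 1 library, the ranges were -1.15 to 0.53 for Mt2 and -1.33 to 0.23 for Gclm with age in muscle, -0.065 to 0.16 for Txnrd1 and -0.25 to 0.045 for Nfe2l2 with age in spleen, and -0.53 to 1.03 for Gclm and -0.14 to 0.084 for Sqstm1 in the difference of age effects. Between the tissues they were -0.24 to 2.64 for Hmox1, -1.05 to 0.51 for Gclm and -0.29 to 0.0098 for Nfe2l2 in young mice and -0.40 to 0.47 for Gclm in aged mice. With library size alone Nfe2l2 was at 0.050 with age in spleen and Gclm at 0.038 and 0.046 between the tissues in young and aged mice. Gclm in aged mice was at 0.028 with DESeq2 and at 0.031 with its size factors in edgeR, and without a filter its difference of age effects was -0.0022. The cause was not tested.

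Library size alone put the median log2 fold change of all genes at 0.21 for age in spleen, 0.15 for age in muscle and 0.18 between the tissues in young mice, against 0.05, 0.03 and 0.07 with TMM, and the calls for age in spleen were then 489 higher and 236 lower, against 307 and 320. Over all genes, age in muscle gave 298 calls and 50 in the fit of 2 groups, 748 without a filter, 479 with the replicate block, 497 by DESeq2 and 147 to 978 without 1 library. Age in spleen gave 627, and 1930, 1039 and 141 to 1046 under the fit of 2 groups, no filter and 1 library left out. The difference gave 372, 670 without a filter and 137 to 646 without 1 library. Depth limits the values of Mt1, Mt2 and Srxn1 in spleen, where single libraries held 1 to 53 counts.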
